A study of Mus musculus with 12 samples.

Results

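The Toll-like receptors of the mouse were followed here as a family, across macrophages and livers of mice with and without a deletion of the thyrotropin receptor gene Tshr in myeloid cells. The family was taken by gene symbol as Tlr1 to Tlr9 and Tlr13, 10 genes of the 55335 listed in the count table, and all 10 had counts in both tissues and passed the filter on low counts in every comparison. Tlr11 and Tlr12 are Toll-like receptors too but were not members. They were kept in the list of coreceptors and accessory proteins. The series held 12 libraries of RNA in 4 groups of n = 3. Tshr f/f animals carried floxed Tshr alleles and no Cre, and Tshr MKO animals carried the same alleles with Lyz2-Cre, a Cre driven by the lysozyme 2 gene that is active in macrophages, neutrophils and other myeloid cells. The floxed line was made on the C57BL/6N background, and male littermates were used throughout. Bone-marrow-derived macrophages (BMDMs) were grown from mice of 6 weeks of age by the sample records, and of 6 to 8 weeks by the study's methods. They were kept for 7 days in M-CSF at 10 ng/mL, and both genotypes then received thyrotropin (TSH) at 1 ng/mL for 24 h, so there was no library without TSH. For the liver libraries, mice ate a high-fat diet (HFD) for 9 weeks from 6 weeks of age and were killed 5 min after insulin at 1.5 U/kg, given after 8 h of fasting. Every liver group had thus received both HFD and insulin. The study's methods give 3 mice per group for both tissues, and p-values measure the spread between these libraries.

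Toll-like receptors are the innate sensors by which macrophages recognise microbial molecules and material from damaged cells. Receptors at the cell surface read lipids and proteins: Tlr2 pairs with Tlr1 or Tlr6 to bind lipopeptides, Tlr4 binds lipopolysaccharide with its partner Ly96 and the coreceptor Cd14, and Tlr5 binds flagellin. Receptors in endosomes read nucleic acids: Tlr3 binds double-stranded RNA, Tlr7 single-stranded RNA, Tlr9 unmethylated CpG DNA, and Tlr13 bacterial ribosomal RNA. Tlr8 is counted with this endosomal group, and its ligand in the mouse is not described here. The endosomal group reaches its compartment with the chaperone Unc93b1 and is cut there by proteases such as cathepsins. Most of the family signals through the adaptor Myd88 and the Irak kinases to NF-κB, and Tlr3 and internalised Tlr4 signal through Ticam1 to the interferon genes. In liver these receptors are best known from Kupffer cells, the resident macrophages.

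The libraries held 28962878 to 40954211 counts, and the floor of 3 counts came to 0.0687 to 0.115 CPM per library, which covers counting error only. CPM are counts brought to a common library size, scaled by the trimmed mean of M-values (TMM) within a tissue. Tshr itself had 0 to 5 counts in each BMDM library and 0 in each liver, so its loss could not be checked. BMDM Tshr f/f replicate 3 stood apart from the other BMDM libraries, with a scaling factor of 0.738 against 0.993 to 1.11 and with the highest Tnf and Cd14 of the 6. In the BMDMs, the macrophage markers (7 genes, none at 0) summed to 14780 to 16290 CPM in Tshr f/f and 20030 to 29330 CPM in Tshr MKO, where Lyz2 took the largest part, and the median log2 fold change of the 7 was 0.08. The part of these differences in the results was not tested. The hepatocyte markers (6 genes) were at or under 3 counts in every BMDM library. So was the Kupffer cell gene Clec4f, 1 of the 6 resident liver macrophage markers. That list as a whole was present in BMDMs, with 229.6 to 505.6 CPM in Tshr f/f and 67.9 to 373.6 CPM in Tshr MKO. The stellate cell markers (4 genes) summed to 132.1 to 227.9 CPM and 107.9 to 177.9 CPM in these BMDMs. Livers showed hepatocyte markers at 69130 to 92420 CPM in all. Liver Tshr MKO replicate 1 had 56 counts of Lyz2 against 818 to 4473 in the other 5 livers. A listing of cytokine receptor counts published with the study gives the same liver libraries under the other group heading, so the directions for liver follow the labels of the libraries and are written as such.

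In TSH-treated BMDMs all 10 receptors were detected, at very unequal levels, and the leading receptor differed between genotypes. Levels of different genes were compared as TPM, counts divided by the exon length of each gene and brought to a common sum. In Tshr f/f BMDMs the order by mean TPM was Tlr2 (574 ± 157, SD, n = 3), Tlr7 (332 ± 103), Tlr13 (196 ± 72.9), Tlr8 (190 ± 59.6), Tlr1 (100.1 ± 41.0), Tlr4 (79.5 ± 29.6), Tlr6 (47.3 ± 13.4), Tlr3 (21.5 ± 9.11), Tlr9 (14.3 ± 15.0) and Tlr5 (0.513 ± 0.478). Only Tlr8 over Tlr1, Tlr6 over Tlr3 and Tlr9 over Tlr5 were neighbours in this order whose 3 values did not overlap. In Tshr MKO BMDMs the order by TPM was Tlr8 (423 ± 25.1), Tlr13 (401 ± 60.1), Tlr7 (319 ± 27.2), Tlr2 (311 ± 101), Tlr1 (125 ± 15.1), Tlr4 (101.6 ± 25.4), Tlr9 (33.5 ± 5.34), Tlr6 (27.5 ± 3.12), Tlr3 (16.3 ± 1.33) and Tlr5 (2.55 ± 1.55). The 4 leading receptors overlapped their neighbours, and the group of 4 stood clear of Tlr1 below it. Lower in the order, Tlr4 over Tlr9, Tlr6 over Tlr3 and Tlr3 over Tlr5 were separate too. With the length of the longest transcript in place of all exons, Tlr1 and Tlr4 exchanged places in Tshr MKO BMDMs and the order in Tshr f/f BMDMs stayed as it was.

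**Figure D1:**
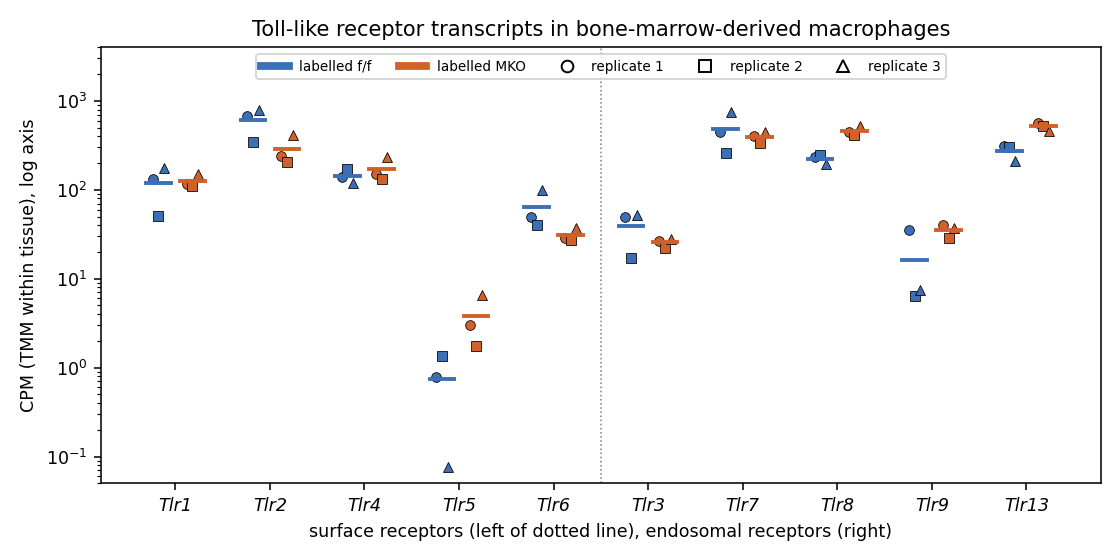
Levels of the 10 receptors in the 6 BMDM libraries as CPM on a log axis, with 1 symbol shape per replicate number and a bar at the mean of each group of 3. Tlr8 lay at 193 to 246 CPM in Tshr f/f and 412 to 517 CPM in Tshr MKO, and Tlr5 of Tshr f/f replicate 3 rested on 2 counts.

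The comparison of Tshr MKO with Tshr f/f BMDMs asked how macrophages of the knockout genotype differ under TSH. Tlr8 and Tlr13, both endosomal receptors, were higher in every Tshr MKO library than in any Tshr f/f library. Tlr6, a surface partner of Tlr2, was lower in every one. None of the 10 receptors had an adjusted p under 0.05 with edgeR's quasi-likelihood test, where 0% of the 15372 genes tested did (lowest adjusted p 0.218). At an unadjusted p under 0.05 in the edgeR fit, 3 receptors were higher (Tlr5, Tlr8 and Tlr13) against 7.73% of all genes, and 2 were lower (Tlr2 and Tlr6) against 10.2%. Groups did not overlap for 3 receptors higher in Tshr MKO (Tlr5, Tlr8 and Tlr13), where 14.8% of all genes were separate in that direction, and for 1 lower (Tlr6), where 14% were. These 4 were also the receptors with separate groups under RLE, upper-quartile and library-total scaling. DESeq2, as the alternative tool, called 2 receptors (Tlr8 and Tlr13) at an adjusted p under 0.05, both higher, against 3.54% of genes called higher and 4.76% called lower. The median log2 fold change of the 10 was 0.16, beside 0.01 over all genes tested.

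Tlr8, on chromosome X (GRCm38, chrX:167242696-167264329, minus strand), had 234, 246 and 193 CPM in the 3 Tshr f/f libraries and 443, 412 and 517 CPM in the 3 Tshr MKO libraries. The lowest Tshr MKO value was thus well above the highest Tshr f/f value. Its log2 fold change was 1.03 ± 0.18 (SE), a 2.04-fold difference (edgeR, adjusted p = 0.218), and it stayed between 0.93 and 1.10 with any single library left out. With DESeq2 a log2 fold change of 1.02 had an adjusted p of 1.05e-06, and over all alternatives the adjusted p ran from 1.05e-06 to 0.587. Tlr13 (chrX:106143204-106160493, plus strand) had 309, 306 and 211 CPM in Tshr f/f and 567, 523 and 459 CPM in Tshr MKO BMDMs. Here too the groups did not overlap, with a log2 fold change of 0.91 ± 0.21 (edgeR, adjusted p = 0.218) that ran from 0.75 to 1.02 with a library left out. DESeq2 gave Tlr13 a log2 fold change of 0.90 with an adjusted p of 0.00147, and over all alternatives it ran from 0.00147 to 0.587.

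The other endosomal receptors did not separate the genotypes. Tlr7, the neighbour of Tlr8 on chromosome X (chrX:167304929-167330558, minus strand), had 444, 262 and 759 CPM in Tshr f/f and 398, 338 and 442 CPM in Tshr MKO BMDMs. All 3 Tshr MKO values fell inside the Tshr f/f range, the log2 fold change was −0.32 ± 0.39 (edgeR, adjusted p = 0.674), and without Tshr f/f replicate 3 it was 0.15. Tlr9, the sensor of CpG DNA, had 35.1, 6.39 and 7.49 CPM in Tshr f/f and 40.0, 28.4 and 36.9 CPM in Tshr MKO. Its Tshr f/f replicate 1 lay among the Tshr MKO values while replicates 2 and 3 lay far below them. The log2 fold change of 1.10 ± 0.67 (edgeR, adjusted p = 0.408) was 2.36 without that replicate and 0.71 when replicate 2 was dropped instead. Tlr3, the sensor of double-stranded RNA, had 49.3, 17.2 and 52.1 CPM in Tshr f/f and 26.6, 22.2 and 28.0 CPM in Tshr MKO, with a log2 fold change of −0.62 ± 0.40 (edgeR, adjusted p = 0.43). An antisense gene, Gm45542, covers 381 bases (7.32%) of the exons of Tlr3, and the strand setting of the counting is not given in the sources used here.

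Among the surface receptors, Tlr2 (chr3:83836272-83841767, minus strand) had 682, 343 and 798 CPM in Tshr f/f and 240, 205 and 412 CPM in Tshr MKO BMDMs. Only Tshr MKO replicate 3 reached into the Tshr f/f range, above Tshr f/f replicate 2. The log2 fold change was −1.09 ± 0.41 (edgeR, adjusted p = 0.26) and ran from −1.45 to −0.85 with a library left out. Tlr6 (chr5:64952031-64960097, minus strand) had 49.2, 40.3 and 100.8 CPM in Tshr f/f and 28.4, 27.4 and 37.1 CPM in Tshr MKO, with no overlap. Its log2 fold change of −1.03 ± 0.36 (edgeR, adjusted p = 0.246) came to −0.53 when Tshr f/f replicate 3, the library that stands apart, was left out. Tlr1, which lies next to Tlr6 (chr5:64924679-64933563, minus strand), had 132.9, 50.2 and 178 CPM in Tshr f/f and 116, 110 and 152 CPM in Tshr MKO. Tlr1 thus overlapped fully, with a log2 fold change of 0.07 ± 0.44 (edgeR, adjusted p = 0.944) that turned to −0.30 when Tshr f/f replicate 2 was left out and to −0.09 for Tshr MKO replicate 3. Tlr1 and Tlr6 are close relatives, and 454 stretches of 50 bases occur in annotated transcripts of both genes, 13.6% of those of Tlr1 and 12.3% of those of Tlr6. How reads shared between them were counted is not given in the sources used here, and no other pair of the 10 genes shared a stretch of that length.

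Tlr4, the lipopolysaccharide receptor, had 141, 172 and 120 CPM in Tshr f/f and 149, 132.9 and 233 CPM in Tshr MKO BMDMs. The ranges overlapped, and the log2 fold change of 0.25 ± 0.26 (edgeR, adjusted p = 0.621) was −0.03 without Tshr MKO replicate 3. Tlr5, the flagellin receptor, was the scarcest of the 10 receptors, with 31, 59 and 2 counts in Tshr f/f and 115, 65 and 272 counts in Tshr MKO. In CPM these were 0.778, 1.35 and 0.0768 against 3.003, 1.73 and 6.55, with the highest Tshr f/f value close to the lowest Tshr MKO value. The log2 fold change of 2.31 ± 0.89 (edgeR, adjusted p = 0.261) rested partly on the 2 counts of Tshr f/f replicate 3 and was 1.81 without that library and 1.65 without Tshr MKO replicate 3.

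The promoters of Tlr2, Tlr8 and Tlr13 are shown because Tlr2 led the family in Tshr f/f and Tlr8 and Tlr13 in Tshr MKO BMDMs. Promoters were RefSeq windows of GRCm38.p6 from 250 bases before to 50 bases after a start, found for 8 of the 10 receptors (10 windows, none for Tlr4 and Tlr7). They were searched on both strands for the PU.1 core GAGGAA, the κB consensus, the ISRE-type repeat GAAANNGAAA, the AP-1 site TGANTCA, the CRE TGACGTCA and the HNF1 site GTTAATNATTAAC. Each sequence runs 5′ to 3′ on the strand of its gene, with motif matches in capitals, and the windows are chr3:83841559-83841858 (minus strand), chrX:167264280-167264579 (minus strand) and chrX:106143025-106143324 (plus strand).
Tlr2: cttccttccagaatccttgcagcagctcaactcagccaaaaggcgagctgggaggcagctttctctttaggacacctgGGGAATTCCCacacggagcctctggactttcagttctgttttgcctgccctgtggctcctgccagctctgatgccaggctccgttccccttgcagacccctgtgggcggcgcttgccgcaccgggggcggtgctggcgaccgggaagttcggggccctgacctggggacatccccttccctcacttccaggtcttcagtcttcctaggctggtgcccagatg
Tlr8: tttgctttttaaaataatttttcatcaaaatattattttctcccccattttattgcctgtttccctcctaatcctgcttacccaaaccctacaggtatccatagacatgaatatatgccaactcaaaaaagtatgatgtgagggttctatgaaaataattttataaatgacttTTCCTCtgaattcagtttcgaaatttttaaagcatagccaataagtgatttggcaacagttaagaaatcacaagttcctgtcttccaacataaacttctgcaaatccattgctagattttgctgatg
Tlr13: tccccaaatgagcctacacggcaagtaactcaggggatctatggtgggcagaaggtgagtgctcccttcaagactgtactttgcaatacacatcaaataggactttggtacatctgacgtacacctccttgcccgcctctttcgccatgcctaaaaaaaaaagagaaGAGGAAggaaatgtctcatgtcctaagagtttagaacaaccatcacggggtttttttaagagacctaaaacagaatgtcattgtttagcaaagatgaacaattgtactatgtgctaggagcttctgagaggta
The Tlr2 window held a κB match, GGGAATTCCC, from position −172 to −163 relative to the start, which reads the same on both strands, and 5.8% of 32851 mouse promoters held a κB match. The Tlr8 and Tlr13 windows each held 1 PU.1 core, at −77 to −72 on the opposite strand and at −83 to −78, a motif found in 28.3% of all promoters. Tlr3 also held a κB match and a Tlr6 window held overlapping ISRE-type matches (3.44% of all promoters). Tlr9 held PU.1 cores and an AP-1 site (7.81%), and a Tlr1 window held a PU.1 core. The CRE (1.79%) and HNF1 (0.00913%) letters were in none of the 10 windows, which include the Tlr5 promoter. These matches describe letters and not binding.

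Counting the family as a whole removes the scaling between libraries, since each receptor is then a share of the summed TPM of the 10. Surface receptors made up 53.4%, 45.0% and 54.9% of this sum in the 3 Tshr f/f BMDM libraries and 28.8%, 28.6% and 38.6% in the 3 Tshr MKO libraries. This difference lay mainly in Tlr2, whose share was 39.7%, 29.9% and 39.7% against 15.4%, 14.7% and 22.4%. The shares of Tlr1 (3.95% to 7.98% against 6.68% to 7.46%) and Tlr4 (3.23% to 8.16% against 5.15% to 6.86%) overlapped between genotypes. Tlr6 had 2.32% to 4.05% against 1.47% to 1.63%, and Tlr5 had at most 0.224%. The Tlr8 share was 11.5%, 18.0% and 8.05% against 23.8%, 24.8% and 23.6%, whereas that of Tlr7 was 19.1%, 16.9% and 27.9% against 18.8%, 17.8% and 17.7%. The Tlr13 share was 12.6%, 18.7% and 7.34% against 25.4%, 26.2% and 17.5%. On this scale Tlr2 exceeded both Tlr8 and Tlr13 in each Tshr f/f library. Tlr8 exceeded Tlr2 in each Tshr MKO library, and Tlr13 did so in all of them except replicate 3. The sum itself overlapped between genotypes, at 1783, 1338 and 1546 TPM in Tshr f/f and 1760, 1613 and 1904 TPM in Tshr MKO. Within single libraries, the ratio of Tlr8 to Tlr2 counts was 0.344, 0.716 and 0.242 in Tshr f/f and 1.84, 2.01 and 1.25 in Tshr MKO, and that of Tlr13 to Tlr2 was 0.454, 0.894 and 0.264 against 2.36, 2.55 and 1.11. These count ratios are not per length, and what they show is that the groups were separate for both. The ratio of Tlr8 to its neighbour Tlr7 was 0.528, 0.938 and 0.254 against 1.11, 1.22 and 1.17. The ratio of Tlr1 to Tlr6, the alternative partners of Tlr2, was 2.70, 1.25 and 1.77 against 4.08, 4.02 and 4.10. These shares and ratios were picked after the values had been seen and are a description with no test.

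**Figure D2:**
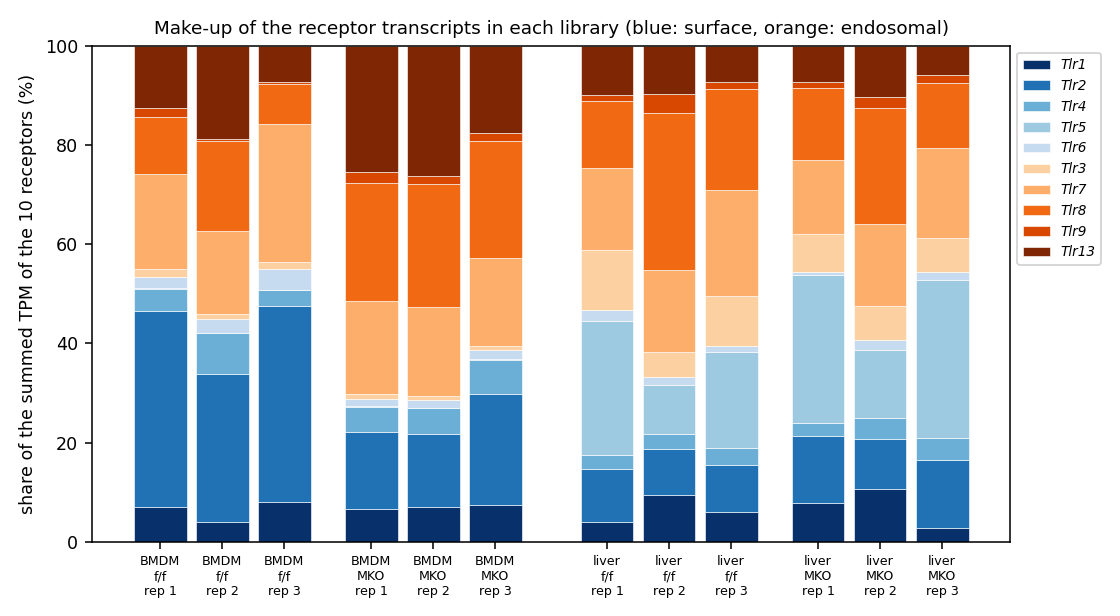
Share of each receptor in the summed TPM of the 10 (vertical axis, %), 1 bar for each of the 12 libraries, with surface receptors in blue and endosomal receptors in orange. The blue part of the bars ends at 45.0% to 54.9% in Tshr f/f BMDMs and 28.6% to 38.6% in Tshr MKO BMDMs, and in livers Tlr5 takes 9.80% to 31.8%.

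Replicates of Tshr f/f BMDMs lay farther apart than those of Tshr MKO BMDMs, which is given as a description with no test. The ratio of the highest to the lowest library of a group ran from 1.27 (Tlr8) to 17.6 (Tlr5) in Tshr f/f BMDMs, with a median of 2.70 over the 10 receptors. In Tshr MKO BMDMs it ran from 1.23 (Tlr13) to 3.78 (Tlr5), with a median of 1.37, and it was narrower than in Tshr f/f for 9 of the 10 receptors, all but Tlr4. Over all genes of at least 10 CPM the medians were 1.44 and 1.17. Tshr f/f replicate 2 was the lowest of its group for 6 receptors and replicate 3 for the other 4.

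The other genes of the pathway were taken from lists by role (73 genes in 7 lists), and they were described in the same fits. None of these genes passed an adjusted p of 0.05 in edgeR in BMDMs. DESeq2 called 20, where it called 3.54% of all genes higher and 4.76% lower, with Cd36, Ctsl and Lgmn higher and the others lower. Among the 16 induced genes, the transcripts that Toll-like receptor signals switch on in macrophages, 15 were tested and all 15 were lower in Tshr MKO BMDMs, each at an unadjusted p under 0.05, with groups separate for 12. Their median log2 fold change was −5.15, and −2.93 without Tshr f/f replicate 3, where 11 of 15 were at that p, and 10 of 16 were without Tshr MKO replicate 1 or without replicate 2. Of all genes tested, 10.2% were lower at that p and 14% were lower with separate groups. DESeq2 had all 15 induced genes below zero and 11 of the 15 lower at that p. It gave an adjusted p to 14739 of 15372 genes, so the remaining induced genes may have had no p-value. Nos2, which makes nitric oxide, had 412, 470 and 6550 CPM in Tshr f/f and 2.45, 3.15 and 11.64 CPM in Tshr MKO (log2 fold change −8.75 ± 1.67, edgeR adjusted p = 0.218). Acod1, which makes itaconate, had 2109, 921 and 5191 CPM against 271, 282 and 376 CPM (−3.15 ± 0.64, edgeR adjusted p = 0.218). The log2 fold changes of the receptors themselves ran from −1.09 to 2.31. The induced genes were already known to be lower in these libraries when the list was made, so their count is no independent support.

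Of the coreceptors and accessory proteins, 13 of 14 were in the table and tested, with 2 higher and 1 lower at an unadjusted p under 0.05 (7.73% and 10.2% of all genes) and a median log2 fold change of 0.57. The Toll-like receptors Tlr11 (0.81 ± 0.72) and Tlr12 (1.25 ± 0.95) were counted in this list, and neither was at that p. With a library left out, the number higher ran from 0 (Tshr MKO replicate 1) to 7 (Tshr f/f replicate 1). The number lower was 0 without Tshr f/f replicate 3, Tshr MKO replicate 1 or Tshr MKO replicate 2. Cd14, which hands lipopolysaccharide to Tlr4, had 387, 508 and 2807 CPM in Tshr f/f and 159, 135 and 378 CPM in Tshr MKO BMDMs (log2 fold change −2.46 ± 0.88, edgeR adjusted p = 0.254), with no overlap. Cd36, a partner of the Tlr2 and Tlr6 pair, had 634, 576 and 416 CPM against 1093, 1027 and 764 CPM (0.83 ± 0.25, edgeR adjusted p = 0.224), also with no overlap. Pld4, an endolysosomal nuclease, was the other gene higher at that p (1.13 ± 0.41), and it is named after its value was seen. Unc93b1, which the endosomal receptors need, had 830, 595 and 768 CPM against 719, 675 and 877 CPM and a log2 fold change of 0.05 ± 0.21. Ly96, the Tlr4 partner, had a log2 fold change of −0.31 ± 0.18. Of the 5 endolysosomal proteases that process endosomal receptors, 2 were higher at an unadjusted p under 0.05 (7.73% of all genes), Lgmn (1288, 894 and 832 CPM against 2117, 1873 and 1900 CPM) and Ctsl (793, 935 and 696 CPM against 1219, 1366 and 1512 CPM). Their log2 fold changes were 0.97 ± 0.24 and 0.76 ± 0.21 (edgeR adjusted p = 0.218 for both), and no protease was lower at that p.

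Among the genes downstream of the receptors, Myd88, the shared adaptor, had 148, 85.4 and 223 CPM in Tshr f/f and 77.5, 73.4 and 80.5 CPM in Tshr MKO BMDMs (log2 fold change −0.98 ± 0.33, edgeR adjusted p = 0.241). It was the only adaptor of 5 tested with an unadjusted p under 0.05, and none was lower at that p without Tshr f/f replicate 1, Tshr f/f replicate 3, Tshr MKO replicate 1 or Tshr MKO replicate 2. The log2 fold changes of the other adaptors named were −0.26 ± 0.17 for Tirap, 0.43 ± 0.23 for Ticam1 and −0.36 ± 0.21 for Ticam2. Of 15 kinases and ubiquitin ligases, 4 were lower and none higher at an unadjusted p under 0.05 (10.2% and 7.73% of all genes), namely Irak2 (−1.43 ± 0.48), Traf3 (−0.67 ± 0.21) and, named after their values were seen, Tbk1 (−0.91 ± 0.33) and Ikbke (−0.84 ± 0.30), while Irak1 (0.27 ± 0.13) and Irak4 (0.27 ± 0.16) lay above zero. DESeq2 had 4 lower and 2 higher at that p. With a library left out of the edgeR fit, the number lower was 0 for Tshr MKO replicate 1 or replicate 2, 2 for Tshr f/f replicate 1, Tshr f/f replicate 3 or Tshr MKO replicate 3, and 7 for Tshr f/f replicate 2. Regardless of p, 12 of the 15 values were below zero, and 8 were with library totals. Of 10 inhibitors of the pathway, 6 were below zero and 4 were lower at that p, with Irak3, a brake on Irak signalling, at 136, 200 and 402 CPM against 52.7, 51.0 and 80.0 CPM (−2.01 ± 0.44, edgeR adjusted p = 0.218). Tnfaip3, a ubiquitin-editing inhibitor, had a log2 fold change of −2.95 ± 0.86, and Socs1 (−2.53 ± 0.75) and Cyld (−0.37 ± 0.15), named after their values were seen, were the others. Of 7 endogenous ligands, S100a8 (−2.37 ± 0.81) and Vcan (−1.27 ± 0.46) were lower at that p, with overlapping groups, and the number was 0 without Tshr f/f replicate 2, Tshr f/f replicate 3, Tshr MKO replicate 1 or Tshr MKO replicate 2. The neutrophil list has 7 genes, S100a8 among them, with 1 at 0 in all Tshr f/f libraries. It summed to 7.33 to 48.8 CPM in Tshr f/f and 4.91 to 11.2 CPM in Tshr MKO BMDMs. S100a8 itself was most of this sum, with 5.22, 29.0 and 45.6 CPM against 3.08, 3.55 and 8.80 CPM. Of the 4 neutrophil markers tested, Retnlg (3.80 ± 0.635) and S100a9 (0.96 ± 1.04) lay above zero. S100a8 and Camp (−3.23 ± 0.48) lay below. The part of neutrophils in these values was not tested.

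**Figure D3:**
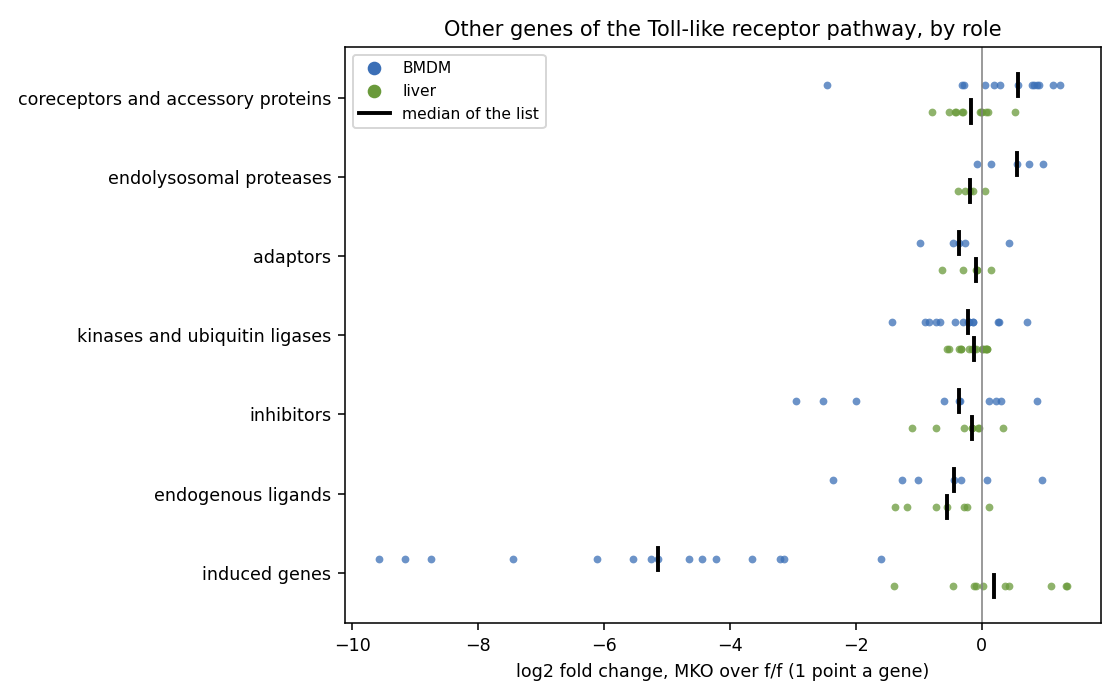
Log2 fold change of Tshr MKO over Tshr f/f for each tested gene of the 7 pathway lists, in BMDMs (blue) and in livers (green), with a black bar at the median of each list. In BMDMs the induced genes have a median of −5.15 and the endolysosomal proteases a median of 0.56, and in livers all 7 medians lie between −0.55 and 0.20.

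In the livers all 10 receptors were detected at low levels, and no genotype difference passed the test. None of the receptors had an adjusted p under 0.05 in edgeR (0% of 15062 genes did, lowest 0.0634) or in DESeq2, and none had an unadjusted p under 0.05 in either tool, where edgeR gave 5.27% of genes higher and 5.18% lower. The livers labelled Tshr MKO had the lower value for 9 of 10 receptors. The median of the 10 log2 fold changes was −0.52, beside −0.01 over all genes, and Tlr5 had the value above zero. This direction depended on 1 library. Liver Tshr f/f replicate 2 had the highest level of its group for all 10 receptors, and without it 7 of the 10 values were above zero (median 0.18). Tlr3 was the 1 receptor with separate groups, lower in livers labelled Tshr MKO where 7.74% of genes were, and no receptor was higher where 9.6% were. Its groups overlapped under upper-quartile and library-total scaling.

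Tlr8 showed how much single livers differed, with 3.32, 21.4 and 6.80 CPM for livers labelled Tshr f/f and 4.64, 9.88 and 2.83 CPM in the others. Replicate 2 was the highest in both groups, and the log2 fold change of −0.86 ± 0.74 (edgeR, adjusted p = 0.738) was 0.20 without Tshr f/f replicate 2. Tlr13 had 2.91, 7.86 and 2.92 CPM against 2.74, 5.24 and 1.52 CPM, and its log2 fold change of −0.52 ± 0.57 (edgeR, adjusted p = 0.801) was 0.13 without that library. Tlr9 rested on 8, 92 and 15 counts against 13, 35 and 9 counts, with a log2 fold change of −1.11 ± 0.87 that was 0.41 without that library. Tlr7 had 4.57, 12.8 and 8.19 CPM against 5.39, 7.95 and 4.495 CPM (−0.52 ± 0.39, edgeR adjusted p = 0.699). Tlr3 had 4.30, 4.85 and 4.84 CPM against 3.49, 4.14 and 2.12 CPM, a log2 fold change of −0.52 ± 0.27 (edgeR, adjusted p = 0.555). Tlr3 in livers labelled Tshr f/f was thus nearly level, unlike the other endosomal receptors.

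**Figure D4:**
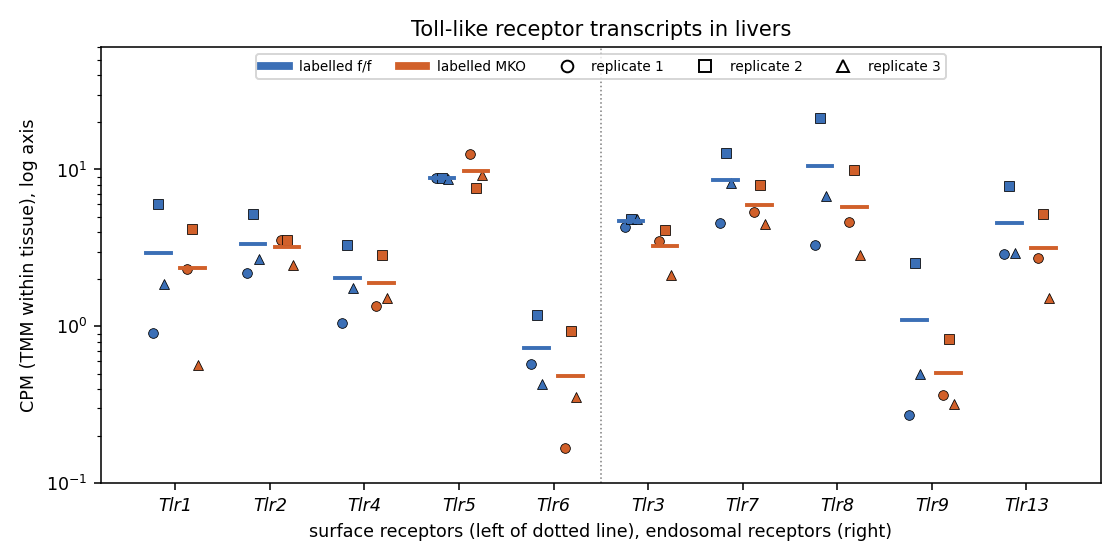
Levels of the 10 receptors in the 6 livers as CPM on a log axis, with 1 symbol shape per replicate number and a bar at the mean of each group of 3. Tshr f/f replicate 2 (blue square) is the highest of its group for all 10 receptors, and Tlr5 lies at 8.73 to 8.85 CPM in the 3 livers labelled Tshr f/f.

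The surface receptors in liver included the most even one of the family. In livers labelled Tshr f/f, Tlr5 had 8.76, 8.85 and 8.73 CPM, a ratio of highest to lowest of 1.01, and 12.63, 7.62 and 9.17 CPM in livers labelled Tshr MKO (log2 fold change 0.16 ± 0.20, edgeR adjusted p = 0.831). Tlr2 had 2.20, 5.21 and 2.69 CPM against 3.58, 3.57 and 2.48 CPM (−0.07 ± 0.37), and 0.39 without Tshr f/f replicate 2. Tlr1 had 0.914, 5.98 and 1.86 CPM against 2.32, 4.17 and 0.566 CPM (−0.31 ± 0.86), and 0.77 without that library. For Tlr4 the values were 1.05, 3.31 and 1.76 CPM against 1.34, 2.83 and 1.52 CPM (−0.10 ± 0.50), and the log2 fold change was 0.44 without that library. Tlr6 had the fewest counts of the 10 receptors, 17, 43 and 13 against 6, 39 and 10 (−0.58 ± 0.70). By TPM among the 10, the livers labelled Tshr f/f were led by Tlr8 (6.90 ± 6.43), Tlr7 (4.88 ± 2.56) and Tlr5 (4.203 ± 0.361), and those labelled Tshr MKO by Tlr5 (4.49 ± 1.19), Tlr8 (3.58 ± 2.35) and Tlr7 (3.21 ± 1.06). Every neighbour in either order overlapped the next.

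Markers of macrophages and of other cell types varied from liver to liver. The macrophage list (7 genes, none at 0 in any group) summed to 122.8, 314 and 213 CPM for livers labelled Tshr f/f and 148, 294 and 128 CPM in livers labelled Tshr MKO. The resident macrophage list (6 genes, none at 0, Clec4f and Vsig4 among them) summed to 228, 598 and 444 CPM and to 397, 513 and 201 CPM. The 10 receptors summed to 28.9, 73.9 and 38.7 CPM and to 36.7, 47.2 and 25.4 CPM, again with replicate 2 highest in both groups. Stellate cell markers (4 genes, none at 0) had the same order in livers labelled Tshr f/f, at 29.5, 252 and 151 CPM, and 138.5, 134 and 94.5 CPM in the others. Endothelial markers (5 genes, none at 0) had 38.4, 139 and 142 CPM against 118, 129.5 and 91.8 CPM. The neutrophil list (7 genes) was highest in another library, at 69.5, 26.0 and 7.36 CPM against 8.35, 13.6 and 14.8 CPM. In bulk liver, fewer macrophages and less receptor RNA per macrophage cannot be told apart, and the part of macrophage, stellate or endothelial content in these values was not tested.

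Of the other pathway genes in liver, none passed an adjusted p of 0.05 in edgeR or DESeq2. Among the 15 kinases and ubiquitin ligases, 5 had an unadjusted p under 0.05, all lower where the label was Tshr MKO, against the 5.18% of all genes given above. The number fell to 1 when Tshr MKO replicate 1 was left out, to 2 for Tshr f/f replicate 1, Tshr f/f replicate 3 or Tshr MKO replicate 3, and to 3 for Tshr MKO replicate 2. It was 3 with library totals and 0 in the fit over 12 libraries. Ripk1 had 44.3, 37.7 and 37.3 CPM against 31.6, 29.4 and 33.8 CPM (log2 fold change −0.33 ± 0.11, edgeR adjusted p = 0.378) and Irak2 had 37.6, 23.2 and 28.6 CPM against 19.3, 22.9 and 19.0 CPM (−0.55 ± 0.18, edgeR adjusted p = 0.403). The groups of both genes did not overlap. The others, named after their values were seen, were Peli1 (−0.33 ± 0.12), Tab2 (−0.37 ± 0.14) and Tab1 (−0.52 ± 0.22). Myd88 (−0.08 ± 0.14), Tirap (−0.10 ± 0.22), Ticam1 (0.14 ± 0.16), Irak1 (−0.12 ± 0.08) and Irak4 (0.03 ± 0.13) had values near zero, and Ticam2 had −0.63 ± 0.85. Cd14 had −0.52 ± 0.36, Ly96 had −0.43 ± 0.25, Lbp, the carrier of lipopolysaccharide, had −0.78 ± 0.36, and Unc93b1 had −0.02 ± 0.31. Only 10 of the 16 induced genes had enough counts to be tested, with Cxcl10, an interferon-induced chemokine, higher (1.25, 2.07 and 2.12 CPM against 2.49, 3.29 and 5.95 CPM, log2 fold change 1.10 ± 0.40) and Socs3, an inhibitor of cytokine signalling, lower (40.7, 16.4 and 38.0 CPM against 6.45, 8.93 and 20.9 CPM, −1.40 ± 0.52) at an unadjusted p under 0.05. Their adjusted p in edgeR was 0.424 and 0.437. No induced gene was at that p in either direction without Tshr f/f replicate 1 or in the fit over 12 libraries, and none was lower without Tshr f/f replicate 3, Tshr MKO replicate 1 or Tshr MKO replicate 2. No coreceptor, protease, adaptor, inhibitor or ligand passed an unadjusted p of 0.05 in the edgeR fit of the 6 livers. There the smallest p in the last 4 lists belonged to Ctsl (−0.38 ± 0.23), Pik3ap1 (−0.29 ± 0.17), Sigirr (−0.28 ± 0.13) and S100a9 (−1.38 ± 0.72), which is also a neutrophil marker. DESeq2 had 1 coreceptor, 1 inhibitor and 1 ligand lower at that p.

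Between the tissues, 9 of the 10 receptors were higher in BMDMs than in liver and Tlr5 was higher in liver, in both genotypes. All 10 passed an adjusted p of 0.05 in the edgeR fit over 12 libraries. In that fit 32.7% of the 17246 genes were higher and 36.6% lower in BMDMs among Tshr f/f libraries, and 31.8% and 36.8% among Tshr MKO libraries, so such a call was common. Among Tshr f/f libraries Tlr2 stood farthest apart (97.4-fold, log2 difference 6.61 ± 0.52, adjusted p = 1.25e-06), and the other 8 ran up from Tlr3 (log2 difference 2.20) to Tlr6 (46.2-fold). Among Tshr MKO libraries Tlr13 stood farthest apart (86.8-fold, log2 difference 6.44 ± 0.57, adjusted p = 3.05e-06), and Tlr3 was again the least (4.22-fold). Tlr5 was 21.1-fold lower in BMDMs than in liver among Tshr f/f (log2 difference −4.40 ± 0.71, adjusted p = 0.000252) and 4.79-fold lower among Tshr MKO libraries (−2.26 ± 0.63, adjusted p = 0.00844). Tlr12, outside the 10, was also lower in BMDMs, with −5.74 ± 0.80 (edgeR, adjusted p = 8.78e-05) and −4.21 ± 0.73 (edgeR, adjusted p = 0.000413) in the same order. Tlr11 was not called in either genotype, at 0.96 ± 0.97 and 1.34 ± 0.94. The Tlr9 difference among Tshr f/f libraries (2.98 ± 0.85, adjusted p = 0.00959) was 1.74 with an adjusted p of 0.0559 without BMDM Tshr f/f replicate 1 (0.000423 to 0.0559 over all alternatives). Scaling by library totals moved the median of all genes from −0.03 to 0.79 among Tshr f/f and from −0.07 to 0.90 among Tshr MKO libraries. Tlr5 then had −1.32 among the latter with an adjusted p of 0.103 (0.000899 to 0.103 over all alternatives). Cell type, culture, TSH, HFD and insulin differ together here and cannot be told apart.

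Within a library, the 10 receptors summed to 1338 to 1904 TPM in BMDMs and to 12.7 to 44.8 TPM in livers. The macrophage markers were likewise higher in BMDMs for all 7 genes in both genotypes, with a median log2 difference of 4.85 among Tshr f/f and 4.93 among Tshr MKO libraries, beside medians of 4.71 and 5.17 for the receptors. Among the 10 receptors, Tlr5 set the make-up of the livers apart, with 9.80% to 31.8% of the summed TPM against 0.00240% to 0.224% in BMDMs. Tlr3 took 4.94% to 12.1% in livers and 0.871% to 1.66% in BMDMs, and Tlr4 took 2.73% to 4.55% in livers and 3.23% to 8.16% in BMDMs. Tlr12 was not part of this sum, and it had 5.73 to 12.6 CPM in livers and 0.0768 to 1.52 CPM in BMDMs.

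The genotype effect in BMDMs minus that in liver was tested as an interaction over the 12 libraries. None of the 10 receptors passed an adjusted p of 0.05 (edgeR), where 0.0058% of genes did, which is 1 gene, Gprc5c, named here after its value was seen. At an unadjusted p under 0.05 there were 2 receptors, Tlr5 (log2 difference 2.14 ± 0.89, adjusted p = 0.313) and Tlr8 (1.88 ± 0.84, adjusted p = 0.342), against 14.5% of all genes. Tlr9 (2.21 ± 1.19) and Tlr13 (1.42 ± 0.65, adjusted p = 0.353) followed, and Tlr2 had −1.02 ± 0.59. Without liver Tshr f/f replicate 2 the Tlr8 value was 0.82 and that of Tlr13 was 0.76. A difference between the tissues in how the genotype affects the receptors was thus not shown.

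**Figure D5:**
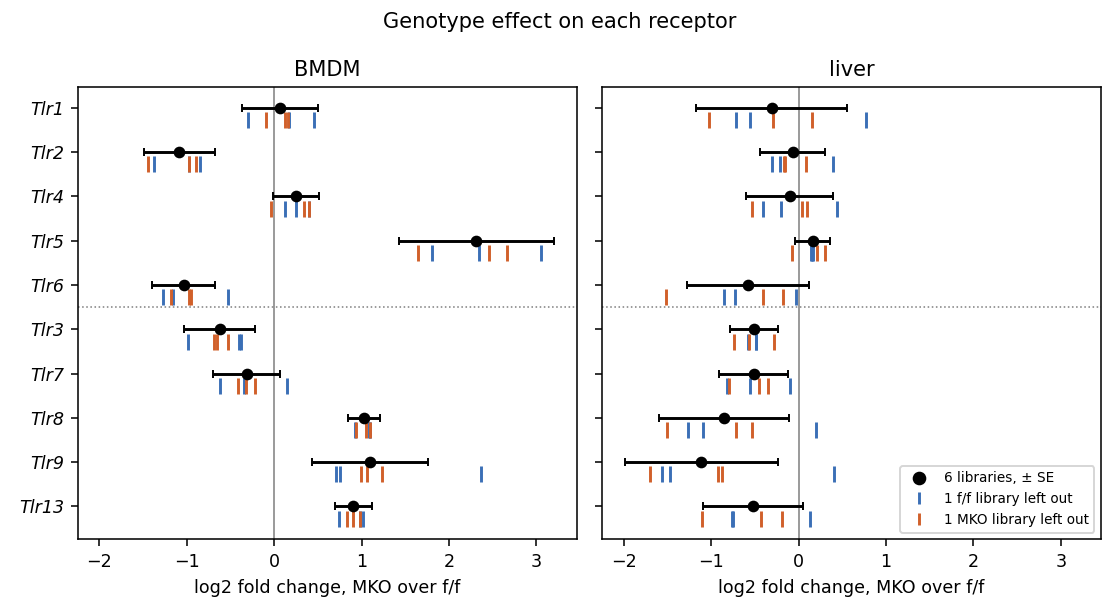
Log2 fold change of Tshr MKO over Tshr f/f for the 10 receptors in BMDMs (left) and in livers (right), with black points and bars for the estimate ± SE from 6 libraries and ticks for the estimate with a single library left out. Tlr8 in BMDMs keeps within 0.93 to 1.10 over the ticks, and in livers the tick without Tshr f/f replicate 2 lies above zero for 7 receptors.

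Across the 12 libraries, the genes whose pattern was most like that of each receptor were found by the root mean square (RMS) difference of log2(CPM + 0.5), each gene centred on its own mean. Tlr2 was closest to Cd200r4 (RMS 0.268) and Creb5 (0.294), Tlr7 to Msr1 (0.269) and Rap2b (0.274), and Tlr4 to Mcub (0.288) and Soat1 (0.297). Tlr8 was closest to Dock2 (0.308) and Nckap1l (0.312), Tlr13 to Myo1f (0.288) and Lat2 (0.328), Tlr3 to Nod1 (0.215) and Foxn2 (0.227), and Tlr9 to Cd300a (0.372) and Rgs10 (0.436). Tlr1 was closest to Sorl1 (0.367) and Sirpa (0.398), Tlr6 to Apaf1 (0.288) and Ncf4 (0.289), and Tlr5 to Aldh9a1 (0.361) and Tesk2 (0.370). The 12 points share the tissue contrast, which dominates this measure, so it is a description only. No receptor was among the nearest genes of another.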

How the data were processed

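RNA of 6 BMDM and 6 liver libraries was measured by strand-specific sequencing. The authors deposited counts of reads per gene. Reads were handled with Skewer and FastQC 0.11.2 by the study's methods, and the submitters' processing notes name STAR, StringTie and mm10. The counting settings are not given in the sources used here. Counts were tested as deposited with edgeR 4.0.16 in R 4.3.3 (quasi-likelihood, robust, TMM factors, filterByExpr, Benjamini-Hochberg over all genes tested), within a tissue for the genotype effect and over 12 libraries for the rest, and a call was an adjusted p under 0.05. The SE is the size of the log2 fold change over the square root of F. The study's own model, MARS in DEGseq, takes no account of replicate spread and was not used. Lengths for TPM came from the exons of GENCODE M21 (GRCm38), for 55154 of the 55335 genes listed, and DESeq2 1.42.0 was an alternative. The alternatives also covered other scalings, other filters, a block by replicate number, a covariate from the initial letter of each liver's sample ID, and each library left out. The script was tested on simulated data. Figures were drawn with matplotlib 3.10.9.

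The library depth of 28962878 to 40954211 counts limits precision for Tlr5 in BMDMs (2 to 272 counts) and for the receptors in livers (6 to 775 counts). No 2 libraries of a group agreed within sampling noise. Samples were grouped by their titles. The members, the pathway and marker lists and the rule for named genes (all 10 receptors; per pathway list the genes with the smallest p in each tissue plus fixed adaptors, kinases and coreceptors; the nearest genes by RMS) were chosen with earlier results of these data known. RefSeq promoters were matched by symbol. No column of the count table was left out.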

Additional observations from a re-analysis of the deposited data

How the results depend on the processing

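The count of receptors called between genotypes in BMDMs was 0 under every scaling, filter, block and left-out library, and differed with the tool or rule: DESeq2 called 2, an unadjusted p under 0.05 gave 5, and that p with a fold change of at least 2 gave 4. The cause was not tested. Of the pathway genes in BMDMs, DESeq2 called 20, the fit over 12 libraries called 2 (Il6 and Cxcl10), and leaving out a library gave 0 to 1, with Cxcl10 called without Tshr f/f replicate 2. The number of receptors at an unadjusted p under 0.05 in BMDMs was 2 without Tshr MKO replicate 1, 3 without Tshr MKO replicate 2, 2 in the fit over 12 libraries and 6 without Tshr f/f replicate 2. In liver 0 receptors were called under every alternative run, with 1 at an unadjusted p under 0.05 without Tshr f/f replicate 1, without Tshr MKO replicate 2 or with the initial letter of the sample ID in the model, and in the comparison of tissues all 10 were called except Tlr9 and Tlr5 in the settings given above.

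Changes of sign came with 1 library left out, and otherwise with library totals or the block. In BMDMs, Tlr1 had −0.30 to 0.46, Tlr4 −0.0345 to 0.40 and Tlr7 −0.62 to 0.15 over the left-out libraries. In livers the ranges were −1.03 to 0.77 for Tlr1, −0.30 to 0.39 for Tlr2, −0.53 to 0.44 for Tlr4, −0.0710 to 0.30 for Tlr5, −1.51 to 0.20 for Tlr8, −1.71 to 0.41 for Tlr9 and −1.11 to 0.13 for Tlr13. For the interaction they were −0.74 to 1.08 for Tlr1, −0.49 to 0.14 for Tlr3, −0.20 to 0.79 for Tlr4, −1.04 to 0.52 for Tlr6 and −0.23 to 0.68 for Tlr7, and library totals gave Tlr3 a value of 0.11.

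A pairing of libraries by replicate number was not shown. The deviations of same-numbered libraries from their group means had correlations of 0.0959, 0.0126 and 0.102 in BMDMs and −0.0562, 0.217 and −0.0209 in livers. Libraries of unlike number had −0.191 to 0.153 in BMDMs and −0.291 to 0.281 in livers. With n = 3 per group these values cannot exclude a pairing. With the replicate number as a block, 0 receptors were called between genotypes in either tissue, and Tlr2 in liver had a log2 fold change of 0.00366 in place of −0.07. Depth is a limit for Tlr5 in Tshr f/f BMDMs, where 1 library had 2 counts.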
